A study of Mus musculus with 10 samples.

Results

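The transcription factors that set hepatocyte identity were followed in mouse liver after the histone variant H3.3 was removed from hepatocytes. The set held 9 genes, chosen by symbol in the deposited count table: Hnf4a, Foxa1, Foxa2, Foxa3, Cebpa, Onecut1, Onecut2, Prox1 and Nr5a2. All 9 were found, among 55421 gene identifiers in the table, and all 9 were among the 22449 genes tested. Poly(A) RNA from 10 whole livers of male mice had been sequenced. The H3.3 KO group held 4 mice with floxed H3f3a and H3f3b (H3f3afl/fl, H3f3bfl/fl), the genes that encode H3.3, which received the virus AAV8 with Cre under the Tbg promoter (Tbg-Cre). The WT Cre controls were 3 wild-type mice given that virus, and the MCS controls were 3 floxed mice given AAV8 Tbg-MCS, which carries no Cre. All mice were 6 months old at injection and their livers were taken 3 weeks later. The AAV8 capsid and the Tbg promoter were therefore shared by every group, Cre by the KO and the WT Cre mice, and the floxed alleles by the KO and the MCS mice. The Tbg promoter is active in hepatocytes, so the other cells of the liver were outside the deletion but inside the RNA sample. The genotype field of the labels names HIRA for the floxed mice where the titles name H3f3a and H3f3b, and the groups follow the titles. Control livers were assigned to their kind by library number, so that values for 1 kind of control rest on that match, whereas values for the 6 pooled controls do not.

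Hepatocytes are kept differentiated by a small set of DNA-binding proteins that bind one another's promoters as well as the enhancers of liver genes, so that each helps to maintain the others. HNF4α, a nuclear receptor, and C/EBPα, a basic leucine zipper protein, act on genes of metabolism and secretion, while the forkhead proteins FOXA1, FOXA2 and FOXA3 open liver chromatin. HNF6 and OC2 (Onecut1 and Onecut2) guide liver and bile duct development, PROX1 is a homeodomain protein of hepatocytes and lymphatic vessels that can hold HNF4α and LRH-1 in check, and LRH-1 (Nr5a2) is a nuclear receptor for genes of bile acid and cholesterol handling.

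Because the factors can bind at one another's genes, promoters of the set were searched for short forms of the families' own motifs. RefSeq promoter windows (GRCm38.p6, the assembly named mm10) were matched for 8 of the 9 factors, 13 windows in all. Onecut2 had no entry. The 250 bases before each start were read on both strands, and in the 13 windows no match of 1 motif overlapped a match of another. The FOXA letters TGTTTAC or TGTTTGC stood in 7.29% of 32851 promoters and in 2 of the 13 windows. The ONECUT letters ATTGATT or ATCGATA stood in 2.82% of promoters and in 2 of the 13. The CEBP letters TTGCNNAA stood in 9.56% and in 1 of the 13, at Nr5a2. Neither HNF4A letters (CAAAGTCC or CAAAGTTC, 2.08% of promoters) nor NR5A2 letters (CAAGGTCA or CAAGGCCA, 3.28%) stood in any of the 13. The 4 windows printed here were picked after the search as those of Hnf4a, Foxa1, Foxa2 and Prox1 in which a FOXA or ONECUT match lay. They run 5′ to 3′ on the gene's strand, with the matched letters in capitals, and bases within annotated exons of the gene itself are left out.
Hnf4a, upstream start (chr2:163506607-163506807, plus strand, 201 bases): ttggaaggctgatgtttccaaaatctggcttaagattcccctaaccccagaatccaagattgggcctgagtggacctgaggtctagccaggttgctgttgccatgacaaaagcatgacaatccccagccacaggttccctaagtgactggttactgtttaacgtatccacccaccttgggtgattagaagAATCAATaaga
Foxa2, outermost start (chr2:148046970-148047219, minus strand, 250 bases): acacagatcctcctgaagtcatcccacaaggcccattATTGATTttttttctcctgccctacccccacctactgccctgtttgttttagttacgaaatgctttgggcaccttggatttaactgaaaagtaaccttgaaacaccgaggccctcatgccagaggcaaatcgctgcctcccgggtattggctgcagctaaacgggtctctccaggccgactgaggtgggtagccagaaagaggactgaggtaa
Foxa1 (chr12:57546122-57546361, minus strand, 240 bases): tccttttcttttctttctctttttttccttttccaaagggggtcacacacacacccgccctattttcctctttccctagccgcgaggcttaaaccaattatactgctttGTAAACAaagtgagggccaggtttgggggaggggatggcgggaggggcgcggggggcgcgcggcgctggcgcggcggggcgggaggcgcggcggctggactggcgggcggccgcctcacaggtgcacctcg
Prox1, inner start (chr1:190169516-190169765, minus strand, 250 bases): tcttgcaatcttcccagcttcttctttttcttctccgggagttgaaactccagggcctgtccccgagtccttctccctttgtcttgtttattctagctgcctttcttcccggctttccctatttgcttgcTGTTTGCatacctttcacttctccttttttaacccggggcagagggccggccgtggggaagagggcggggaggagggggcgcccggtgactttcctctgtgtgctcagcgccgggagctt
The Hnf4a upstream window holds an ONECUT match 60 bases before the start. Foxa2 holds an ONECUT match at 213 bases, Foxa1 a FOXA match at 141 bases and Prox1 a FOXA match at 120 bases before the start. Distances are counted from RefSeq starts, which for these Hnf4a, Foxa1 and Prox1 windows lie inside the gene as annotated in GENCODE. A match is a description of letters and not evidence of binding. The Hnf4a upstream window lies within the antisense gene Hnf4aos, and the Prox1 window overlaps the antisense gene Gm28172.

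The targeted genes were checked first. Levels are given as CPM, the count of a gene relative to the library size after TMM scaling. H3f3a stood at 59.9, 63.5 and 61.3 CPM in WT Cre controls 1 to 3, at 63.7, 63.4 and 61.0 in MCS controls 1 to 3, and at 16.0, 18.7, 16.0 and 19.01 in KO 1 to 4. H3f3b ran from 136 to 204 CPM in the controls and stood at 39.8, 53.7, 51.8 and 56.7 in KO 1 to 4. All 4 KO livers lay below all 6 controls for both genes, at 25.7% to 30.6% of the control mean for H3f3a and 24.9% to 35.4% for H3f3b. The edgeR quasi-likelihood test gave log2 fold changes of -1.83 for H3f3a (SE 0.0883, adjusted p = 3.5e-08) and -1.66 for H3f3b (SE 0.139, adjusted p = 3.62e-06).

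Total counts ran from 14998426 in KO 1 to 26096141 in MCS 1. Chi-square values per degree of freedom between livers of 1 group were 11.5 to 109, where sampling noise alone gives about 1, so none was a repeat of another. KO 1 and KO 4 differed most. Alb, the defining product of hepatocytes, stood at 96920 ± 11950 CPM (SD, n = 6) in control livers and 69200 ± 6266 CPM (SD, n = 4) after H3.3 loss. In whole liver RNA, fewer cells of a type and less RNA per cell cannot be told apart. The labels give no batch or date, and p-values measure only the spread between these livers.

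Against the 6 pooled controls, 2 of the 9 factors passed the test, which is an adjusted p under 0.05 over all genes tested. Foxa2 fell and Prox1 rose, while Hnf4a, Foxa1, Foxa3, Cebpa, Onecut1, Onecut2 and Nr5a2 did not pass. Of all genes tested, 36.3% passed (19.7% higher and 16.6% lower), and the share of the factors that passed is not above that. An absolute log2 fold change over 1 with the adjusted p under 0.05 was reached by 1 factor, Foxa2, and by 18.7% of all genes. The groups did not overlap for 2 factors, Foxa2 and Prox1, against 24.5% of all genes. The median log2 fold change of the 9 factors was -0.27, and that of all genes -0.003, with 7 estimates below 0 and 2 above.

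**Figure D1:**
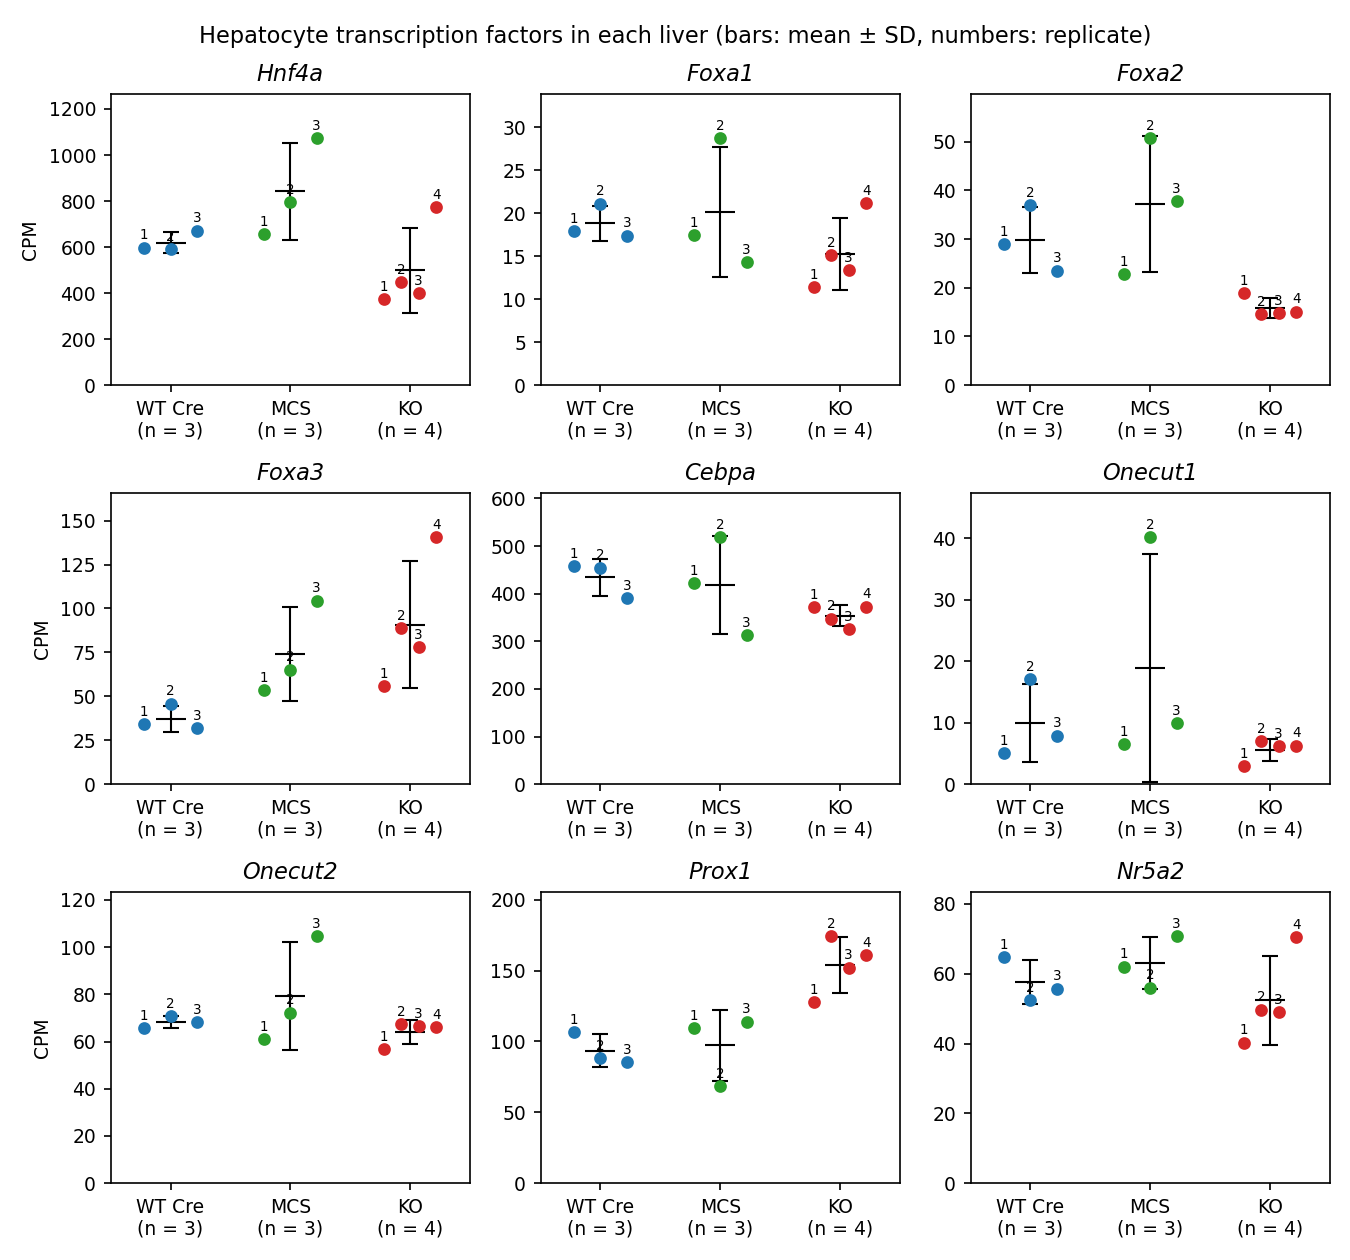
Level of each of the 9 factors in every liver, in CPM from 0, for WT Cre controls, MCS controls and H3.3 KO. Points are livers with their replicate number and black bars the group mean ± SD. The 4 KO livers lie below every control for Foxa2 and above every control for Prox1.

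Hnf4a encodes the nuclear receptor HNF4α, which occupies the promoters of many liver genes. It lies on the plus strand at chr2:163506808-163572910 (mm10). Its level was 597, 590 and 672 CPM in WT Cre controls 1 to 3 and 657, 795 and 1074 CPM in MCS controls 1 to 3. In KO 1 to 4 it was 374, 448, 400 and 772 CPM. KO 1, 2 and 3 lay below all 6 controls, whereas KO 4 lay above 4 of them, so the groups overlapped. The mean was 731 ± 184 CPM (SD, n = 6) for controls and 499 ± 185 CPM (SD, n = 4) for KO. The difference did not pass (log2 fold change -0.55, SE 0.227, adjusted p = 0.0763 in edgeR). Without KO 4 it was -0.84 with an adjusted p of 0.0048. Against the MCS controls Hnf4a was lower (-0.76, SE 0.243, adjusted p = 0.0336 in edgeR), and against the WT Cre controls it did not pass (-0.31, SE 0.243, adjusted p = 0.371). The call against the MCS controls was lost in 8 of the alternatives. It was lost without WT Cre 3 (-0.74, adjusted p = 0.0522), MCS 2 (-0.80, 0.0685), MCS 3 (-0.54, 0.138), KO 1 (-0.64, 0.0818), KO 2 (-0.69, 0.0926) or KO 3 (-0.64, 0.0976). It was also lost without the filter on low counts (-0.73, adjusted p = 0.12) and with scaling by library size only (-0.49, adjusted p = 0.161). Against the WT Cre controls Hnf4a passed without KO 4 (-0.61, adjusted p = 0.0192).

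A pair of annotated genes overlap Hnf4a. Hnf4aos is an antisense transcript from the opposite strand, with no exon shared with Hnf4a. It stood at 4.75, 5.51 and 7.22 CPM in WT Cre controls 1 to 3, at 7.00, 7.72 and 3.297 in MCS controls 1 to 3, and at 1.303, 1.19, 0.843 and 0.612 in KO 1 to 4. All KO livers, KO 4 included, lay below all controls. Hnf4aos fell by 2.61 on the log2 scale (SE 0.289, adjusted p = 2.94e-05 in edgeR), from a mean of 5.92 to 0.986 CPM. Its estimates against the WT Cre controls (-2.58, adjusted p = 0.000182) and the MCS controls (-2.63, adjusted p = 0.000126) were alike in size. The libraries were made with a strand-marking kit, but the strand setting of the counting is not given in the sources used here. Without it, reads from stretches that a gene and its antisense partner share cannot be told apart. The exons of Hnf4a and Hnf4aos lie apart, so only intron reads could be counted for the wrong gene. Gm25881, a small nuclear RNA gene in Hnf4a, had 1 to 3 counts per liver and its value did not pass (-0.14, adjusted p = 0.883).

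Of the 3 Foxa genes, Foxa2 fell and the other two did not pass. FOXA proteins are forkhead factors that bind closed chromatin at liver enhancers, and FOXA2 also acts on genes of fatty acid oxidation and bile acid handling. Foxa2 (chr2:148042877-148046969, minus strand) stood at 28.9, 37.0 and 23.5 CPM in WT Cre controls 1 to 3 and at 22.8, 50.8 and 37.8 CPM in MCS controls 1 to 3. In KO 1 to 4 it stood at 18.9, 14.6, 14.8 and 15.1 CPM. Every KO liver was lower than every control, and KO 2, 3 and 4 lay within 1 CPM of one another. The mean fell from 33.5 ± 10.6 (SD, n = 6) to 15.8 ± 2.06 CPM (SD, n = 4), or 47.3% of the control value. On the log2 scale it changed by -1.08 (SE 0.217, adjusted p = 0.00235 in edgeR). Over all alternatives it ran from -1.18 to -0.80 with adjusted p-values of 2.9e-05 to 0.017. Foxa2 was lower against the WT Cre controls (-0.92, SE 0.24, adjusted p = 0.0157 in edgeR) and against the MCS controls (-1.23, SE 0.24, adjusted p = 0.00293). The first of these did not pass without WT Cre 2 (-0.73, adjusted p = 0.0698).

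Foxa3 (chr7:19013284-19023538, minus strand) is the family member with the highest level per length in adult liver here. It stood at 34.2, 45.8 and 31.7 CPM in WT Cre controls 1 to 3 and at 53.5, 65.1 and 104.5 in MCS controls 1 to 3. In KO 1 to 4 it stood at 55.9, 88.7, 78.0 and 140.7 CPM. The KO livers all lay above the WT Cre controls, but only KO 4 lay above MCS 3. The mean was 55.8 ± 26.9 CPM (SD, n = 6) for controls and 90.8 ± 36.0 CPM (SD, n = 4) for KO, and the difference did not pass (log2 fold change 0.71, SE 0.362, adjusted p = 0.16 in edgeR). Without MCS 3 it was 0.98 with an adjusted p of 0.0236, and with limma on the log2 FPKM values it was 0.88 (pseudocount 1, adjusted p = 0.0433) or 0.91 (pseudocount 0.1, adjusted p = 0.0425). Foxa3 was higher against the WT Cre controls (1.29, SE 0.33, adjusted p = 0.0168 in edgeR), and against the MCS controls it did not pass (0.29, SE 0.32, adjusted p = 0.532). The call against the WT Cre controls was lost without WT Cre 1 (1.23, adjusted p = 0.0614), without WT Cre 3 (1.19, adjusted p = 0.065) and without the filter on low counts (1.29, adjusted p = 0.0564).

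Foxa1 (chr12:57540628-57546916, minus strand) stood at 17.9, 21.1 and 17.4 CPM in WT Cre controls 1 to 3, at 17.4, 28.8 and 14.3 in MCS controls 1 to 3, and at 11.4, 15.1, 13.4 and 21.2 in KO 1 to 4. KO 1 and KO 3 lay below every control, while KO 4 was exceeded only by MCS 2. The difference did not pass (log2 fold change -0.35, SE 0.203, adjusted p = 0.207 in edgeR), and without KO 4 it was -0.55 with an adjusted p of 0.0424. The values against the WT Cre (-0.30, SE 0.247, adjusted p = 0.411) and the MCS controls (-0.40, SE 0.247, adjusted p = 0.248) did not pass either.

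Ratios between members of 1 family were compared within each liver, where library scaling cancels. The log2 ratio of Foxa2 to Foxa3 was -0.24, -0.31 and -0.43 in WT Cre controls 1 to 3, -1.23, -0.36 and -1.46 in MCS controls 1 to 3, and -1.56, -2.60, -2.40 and -3.22 in KO 1 to 4. All 4 KO livers lay below all 6 controls. The mean fell from -0.67 ± 0.531 (SD, n = 6) to -2.44 ± 0.684 (SD, n = 4), a difference of -1.77. A two-sided exact permutation test over the 210 splits of the livers gave p = 0.00476, the smallest it can give, and 0.0190 after adjustment over the 4 ratios. The adjusted p was 0.0635 in the exact permutation test without MCS 1, where the difference was -1.88, and 0.01587 to 0.04762 with any other single liver left out.

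Foxa1 stood to Foxa2 at a mean log2 ratio of -0.76 ± 0.364 in the 6 controls and -0.08 ± 0.503 in the 4 KO livers. This difference of 0.68 had an exact permutation p of 0.0429, which is 0.0571 after adjustment, and without KO 1 it was 0.89 with an adjusted exact p of 0.0238. Foxa1 to Foxa3 went from -1.43 ± 0.751 to -2.52 ± 0.182, a difference of -1.10 with the same exact permutation p of 0.0429 and adjusted p of 0.0571. Without MCS 3, the control with the lowest ratio at -2.86, the difference was -1.38 and the adjusted exact p 0.0159. The control kinds themselves stood apart in the ratios to Foxa3, with means for Foxa2 to Foxa3 of -0.33 in WT Cre and -1.02 in MCS livers.

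**Figure D2:**
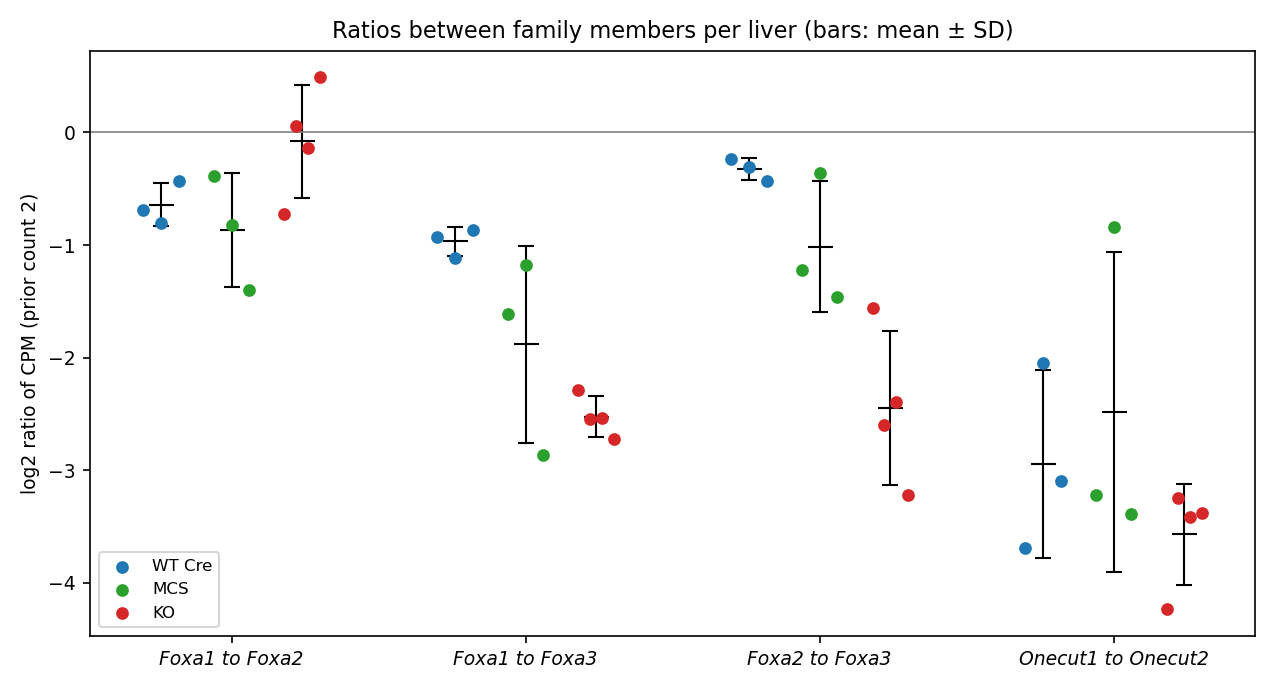
Log2 ratio of CPM between members of the Foxa and Onecut families in each liver, by group, with black bars for the mean ± SD. For Foxa2 to Foxa3 the KO livers run from -3.22 to -1.56 and lie below all controls, which run from -1.46 to -0.24. The groups overlap for the other 3 ratios.

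Cebpa (chr7:35119293-35121928, plus strand) encodes C/EBPα, which acts on genes of gluconeogenesis, the urea cycle and secretion. It stood at 458, 455 and 390 CPM in WT Cre controls 1 to 3, at 422, 519 and 313 in MCS controls 1 to 3, and at 371, 348, 325 and 373 in KO 1 to 4. The KO livers lay close together and below the WT Cre controls, but MCS 3 was the lowest liver of all 10. The mean was 426 ± 70.3 CPM (SD, n = 6) for controls and 354 ± 22.6 CPM (SD, n = 4) for KO. The difference did not pass (log2 fold change -0.27, SE 0.133, adjusted p = 0.137 in edgeR). Without MCS 3 it was -0.34 with an adjusted p of 0.0303. The values against the WT Cre (-0.29, SE 0.154, adjusted p = 0.176) and the MCS controls (-0.24, SE 0.154, adjusted p = 0.263) did not pass, though against the MCS controls without MCS 3 it was -0.41 (adjusted p = 0.0389). Gm45091, an antisense gene that shares exon sequence with Cebpa, had 5 to 32 counts per liver, and its value did not pass (-0.61, adjusted p = 0.274).

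Neither Onecut gene passed against the 6 controls. Onecut1 (chr9:74861921-74891781, plus strand) encodes HNF6, which acts with HNF4α and FOXA2 on liver promoters. It stood at 5.00, 17.1 and 7.90 CPM in WT Cre controls 1 to 3, at 6.47, 40.2 and 9.89 in MCS controls 1 to 3, and at 2.93, 7.00, 6.15 and 6.27 in KO 1 to 4. These values rest on 45 to 901 counts. MCS 2 stood far above the other livers and KO 1 below them, and KO 2, 3 and 4 lay within the control range. The control livers differed 8.04-fold from lowest to highest. The log2 fold change was -1.35 (SE 0.628, adjusted p = 0.126 in edgeR), and without MCS 2 it was -0.72 (SE 0.365, adjusted p = 0.162). Against the MCS controls it was -1.74 (SE 0.68, adjusted p = 0.0862), which passed without MCS 1 (-2.15, adjusted p = 0.0417), in DESeq2 (-1.72, adjusted p = 0.0401) and with the filter of filterByExpr (-1.71, adjusted p = 0.0463). Against the WT Cre controls it was -0.82 (SE 0.685, adjusted p = 0.42). A lincRNA gene on the same strand, Gm20649, overlaps exons of Onecut1 and had at most 1 count per liver.

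Onecut2 (chromosome 18, plus strand) encodes a related factor of the developing liver. It stood at 65.5, 70.8 and 68.2 CPM in WT Cre controls 1 to 3, at 60.9, 72.2 and 104.7 in MCS controls 1 to 3, and at 56.7, 67.3, 66.4 and 66.0 in KO 1 to 4. Apart from MCS 3, the highest, and KO 1, the lowest, 8 livers lay between 60.9 and 72.2 CPM. The log2 fold change was -0.20 (SE 0.139, adjusted p = 0.286 in edgeR). Against the MCS controls it was -0.31 (SE 0.156, adjusted p = 0.156), and -0.47 without MCS 1 (adjusted p = 0.0436). Against the WT Cre controls it was -0.09 (SE 0.156, adjusted p = 0.713). The log2 ratio of Onecut1 to Onecut2 was -2.71 ± 1.07 in the 6 controls and -3.57 ± 0.449 in the 4 KO livers, and the difference of -0.85 did not pass (exact permutation p = 0.176).

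Prox1 was the factor that rose. Its product is a homeodomain protein, needed for hepatocytes to spread in the embryo, that acts as a corepressor of nuclear receptors. Prox1 (chr1:190118035-190170714, minus strand) stood at 107, 88.2 and 85.5 CPM in WT Cre controls 1 to 3 and at 109.5, 68.4 and 114 in MCS controls 1 to 3. In KO 1 to 4 it stood at 128, 174, 152 and 161 CPM. Every KO liver was higher than every control. The mean went from 95.4 ± 17.6 (SD, n = 6) to 154 ± 19.7 CPM (SD, n = 4), or 161% of the control value. On the log2 scale it changed by 0.69 (SE 0.143, adjusted p = 0.0023 in edgeR), and over all alternatives it ran from 0.61 to 0.87 with adjusted p-values of 0.000111 to 0.011. Prox1 was higher against the WT Cre controls (0.72, SE 0.176, adjusted p = 0.00983 in edgeR) and against the MCS controls (0.66, SE 0.176, adjusted p = 0.013). Without WT Cre 3 the first was 0.66 with an adjusted p of 0.0507, and without MCS 2 the second was 0.46 with an adjusted p of 0.0516.

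PROX1 also marks lymphatic vessels. Of 5 lymphatic endothelial markers tested, 1 rose (Reln, which stellate cells also express), where 19.7% of all genes rose. Flt4 did not pass (0.32, adjusted p = 0.102). None of the 5 rose without WT Cre 2, WT Cre 3, MCS 1, MCS 2, KO 2, KO 3 or KO 4. Without WT Cre 1, MCS 3 or KO 1, 2 rose, and 3 with scaling by library size only. Their summed level was 69.2 to 103 CPM in the controls and 84.0 to 139 CPM in KO, so the groups overlapped, and Ccl21a was too low to be tested. Reln (mean 42.0 CPM in the controls and 56.0 in KO) and Flt4 (28.1 and 35.0) made up most of that sum. The part of lymphatic cells in the Prox1 value was not tested. The antisense gene Prox1os, which shares exon sequence with Prox1, moved the other way without passing. It stood at 3.74 to 7.37 CPM in the controls and at 5.47, 1.98, 1.14 and 0.803 CPM in KO 1 to 4 (log2 fold change -1.21, SE 0.456, adjusted p = 0.0592 in edgeR). KO 1 lay within the control range and the other 3 below it. Gm28172, a second antisense gene at Prox1, had 3 to 18 counts per liver and its value did not pass (-0.48, adjusted p = 0.36).

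Nr5a2 (chr1:136842571-136960448, minus strand) encodes LRH-1, a nuclear receptor that acts on genes of bile acid synthesis and cholesterol export. It stood at 64.7, 52.4 and 55.7 CPM in WT Cre controls 1 to 3, at 62.0, 56.0 and 70.8 in MCS controls 1 to 3, and at 40.3, 49.7, 49.1 and 70.5 in KO 1 to 4. KO 1, 2 and 3 were the 3 lowest livers of the 10, and KO 4 was the second highest. The difference did not pass (log2 fold change -0.20, SE 0.142, adjusted p = 0.298 in edgeR). Without KO 4 it was -0.38 with an adjusted p of 0.0224. Against the MCS controls it was -0.26 (SE 0.167, adjusted p = 0.252), and -0.44 without KO 4 (adjusted p = 0.02). Against the WT Cre controls it was -0.14 (SE 0.167, adjusted p = 0.588).

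**Figure D3:**
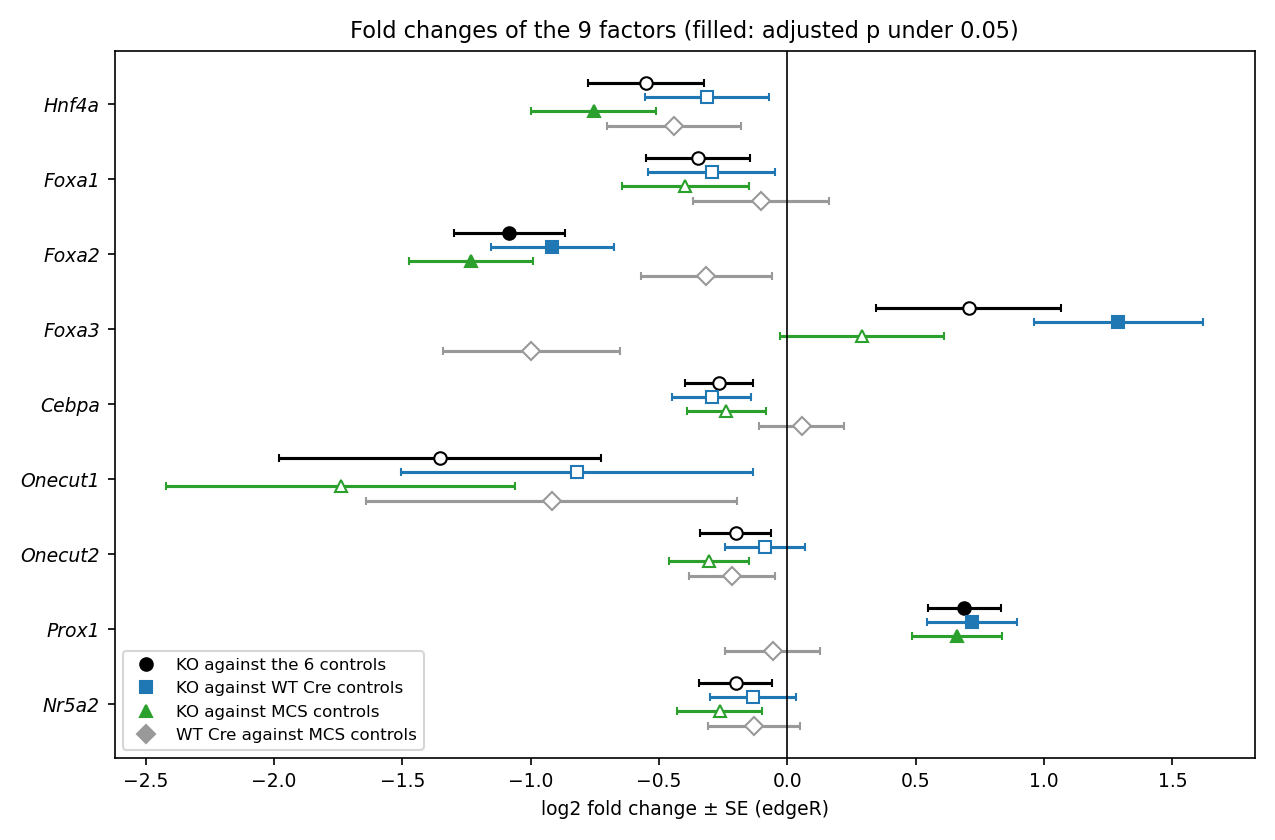
Log2 fold change ± SE (edgeR) of each factor in 4 comparisons, with filled symbols at an adjusted p under 0.05. Foxa2 is near -1 and Prox1 near 0.7 against both kinds of control, while Foxa3 is at 1.29 against WT Cre and 0.29 against MCS controls.

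The comparisons with each kind of control share the 4 KO livers. Against the WT Cre controls, which received the same Cre virus, 3 of the 9 factors passed, Foxa2 lower and Prox1 and Foxa3 higher, against 28.4% of all genes. The groups did not overlap for 4 factors (Foxa2 and Cebpa lower, Foxa3 and Prox1 higher) and for 36% of all genes. Against the MCS controls, which carry the same floxed alleles, 3 factors passed, Foxa2 and Hnf4a lower and Prox1 higher, against 32% of all genes. There the groups did not overlap for 2 factors, Foxa2 and Prox1, and for 35.5% of all genes. These 2 passed against both kinds of control.

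Between the control kinds themselves, 0.927% of all genes passed in edgeR and none of the 9 factors did, in this fit or in any alternative, DESeq2 and limma-voom included. At an unadjusted p under 0.05 there was 1, Foxa3, which was lower in WT Cre than in MCS livers by a log2 value of -0.997 (SE 0.344, unadjusted p = 0.0165, adjusted p = 0.309). Its control groups did not overlap, as for 22.2% of all genes. Hnf4a differed by -0.44 (SE 0.262, adjusted p = 0.61) and Onecut1 by -0.92 (SE 0.722, adjusted p = 0.751). The spread among MCS livers was wide for several factors. Of the 10 livers, MCS 2 had the highest level of Foxa1, Foxa2, Cebpa and Onecut1, and MCS 3 that of Hnf4a, Onecut2 and Nr5a2.

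The 4 KO livers were not alike across the set. KO 4 held Hnf4a at 106% of the control mean, where KO 1, 2 and 3 held 51.2%, 61.3% and 54.8%. For Foxa1 it held 109% against 58.5% to 77.5%, for Nr5a2 117% against 66.8% to 82.4%, and for Foxa3 252% against 100.2% to 159%. For these 4 genes KO 4 was the highest of the KO livers. For Foxa2 (45.02%), Prox1 (169%), Cebpa (87.5%) and Onecut2 (89.5%), KO 4 lay within or next to the range of the other 3. H3f3a was at 30.6% in KO 4 and at 25.7% to 30.2% in the others, and H3f3b at 35.4% and at 24.9% to 33.6%. KO 1, the library with the fewest counts, lay below all 6 controls for 6 factors (Hnf4a, Foxa1, Foxa2, Onecut1, Onecut2 and Nr5a2), KO 3 for 4, KO 2 for 3 and KO 4 for Foxa2 alone. The summed level of Kupffer cell markers was highest in KO 4 (1257 CPM) and lowest in KO 1 (579 CPM), and the part of other cells in these differences was not tested.

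**Figure D4:**
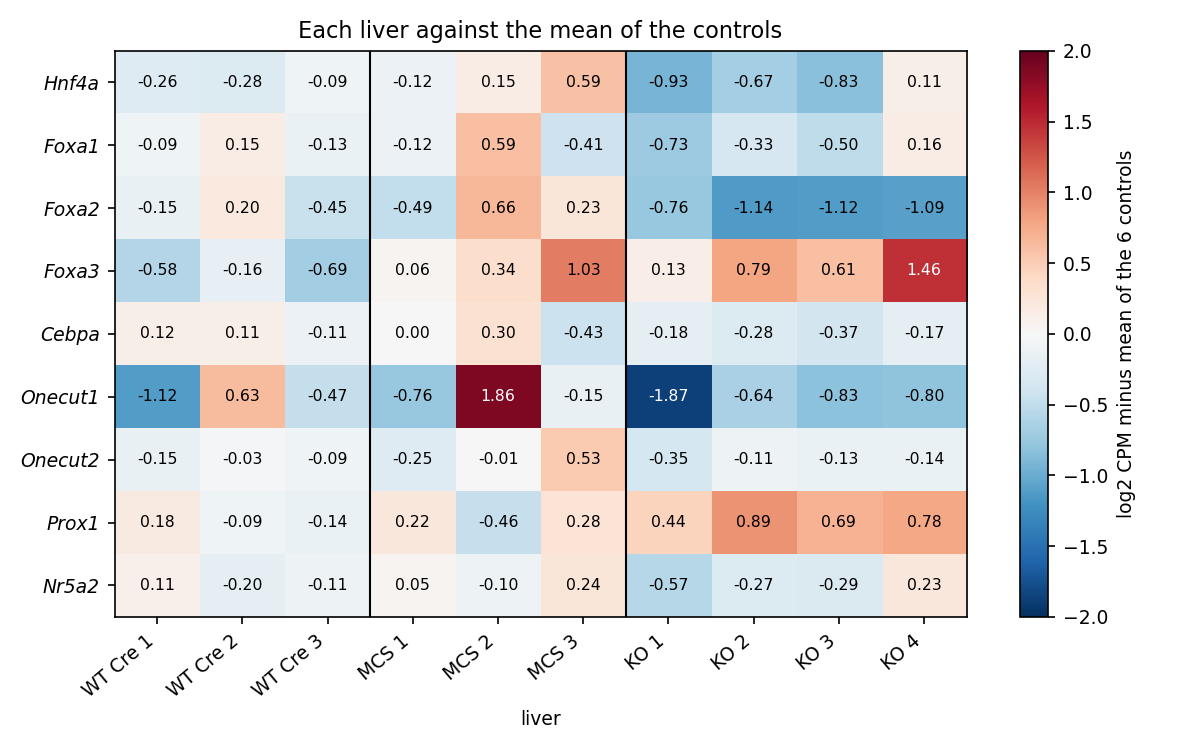
Log2 CPM of the 9 factors in each of the 10 livers minus the mean of the 6 controls, on a colour scale from -2 to 2. Foxa2 is below and Prox1 above 0 in all KO livers, Hnf4a is between -0.93 and -0.67 in KO 1 to 3 and at 0.11 in KO 4, and MCS 2 has the highest Onecut1 value, 1.86.

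Levels were also ordered per length, as CPM per kilobase of annotated exon. In the controls the order was Cebpa (162 ± 26.7), Hnf4a (151 ± 38.04), Foxa3 (27.4 ± 13.2), Foxa2 (14.1 ± 4.48), Prox1 (11.4 ± 2.10), Nr5a2 (10.2 ± 1.16), Foxa1 (5.86 ± 1.51), Onecut2 (4.54 ± 0.967) and Onecut1 (3.51 ± 3.24), all SD over 6 livers. Hnf4a lay above Foxa3, and Nr5a2 above Foxa1, without overlap of the livers. Every other neighbour in that order overlapped. In KO the order was Cebpa, Hnf4a, Foxa3, Prox1, Nr5a2, Foxa2, Foxa1, Onecut2 and Onecut1. Foxa2 moved from the fourth to the sixth place at 6.67 ± 0.871 CPM per kilobase (SD, n = 4), and Prox1 from the fifth to the fourth at 18.3 ± 2.35. In KO the pairs Hnf4a and Foxa3, Foxa3 and Prox1, Prox1 and Nr5a2, and Onecut2 and Onecut1 did not overlap, and the other neighbours did.

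For each factor, the genes of most similar profile were taken as those with the smallest root mean square difference in centred log2 CPM over the 10 livers, among 13209 genes of at least 1 CPM. Prox1 was nearest to Bcor (0.11) and Pxn (0.15), and Hnf4a to Fh1 (0.14) and Crem (0.17). Foxa2 was nearest to Zfp655 (0.24) and Clec2d (0.24), Foxa3 to Itgb3 (0.20) and Golt1b (0.22), and Foxa1 to Gm15429 (0.14) and 4930518I15Rik (0.17). Cebpa was nearest to Nprl3 (0.10) and Ranbp3 (0.11), Nr5a2 to Fbxo34 (0.07) and Kdm5c (0.09), and Onecut2 to Zfp169 (0.09) and Lrig1 (0.10). Onecut1, which varied most, had no gene nearer than Gm16551 (0.39) and Socs2 (0.45). No factor was among the nearest genes of another, and the closest pair within the set was Onecut2 and Nr5a2 (0.225). This measure is small for genes that vary little. The same measure about their own means was 0.222 for Onecut2 and 0.243 for Nr5a2, so their distance shows no shared profile. For Onecut1 it was 0.974.

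Of 22 other transcription factors enriched in liver, 10 fell, none rose and 12 did not pass, where 16.6% of all genes fell, with a median log2 fold change of -0.36 beside -0.003 for all genes. Nr1i3, the xenobiotic receptor CAR, fell by 1.34 (SE 0.261, adjusted p = 0.00237 in edgeR), from 84.9 ± 25.2 (SD, n = 6) to 33.6 ± 11.3 CPM (SD, n = 4). Hhex, a homeobox factor of early liver, changed by -0.84 (SE 0.227, adjusted p = 0.013), and Rxra, the partner of many nuclear receptors, by -0.78 (SE 0.103, adjusted p = 9.63e-05). The number that fell was 5 with scaling by library size only, which also gave 2 that rose, and 6 without KO 2 and 5 without KO 3. Without MCS 3, 2 rose. Against the WT Cre controls 7 fell and 2 rose, and against the MCS controls 8 fell and 1 rose. Between the control kinds, 2 of the 22 were lower in WT Cre than in MCS livers. Among 7 tested relatives of the 9 factors, Foxo3 rose (0.60, SE 0.142, adjusted p = 0.00507) and Cebpe (-1.90, SE 0.333, adjusted p = 0.00106) and Prox2 (-0.95, SE 0.301, adjusted p = 0.0246) fell. Their median was -0.09, only 1 fell without WT Cre 1, WT Cre 3, KO 2 or KO 4, and Hnf4g, Onecut3 and Nr5a1 were too low to be tested. Of these 7, 3 rose and 2 fell against the WT Cre controls, and 1 rose and 3 fell against the MCS controls. Prox2 did not pass against the MCS controls (-0.58, adjusted p = 0.173 in edgeR). Between the control kinds, 2 of the 7 relatives were lower in WT Cre than in MCS livers. Of 18 coregulators, 4 rose and 2 fell with a median of 0.14, a share near the 36.3% of all genes that passed. The number that rose was 7 without KO 1 and 8 with scaling by library size only. The corepressor Nrip1 (0.54, SE 0.147, adjusted p = 0.0115) and the coactivator Ncoa3 (0.49, SE 0.139, adjusted p = 0.0153) were higher, as was Kmt2c (0.36). Ppargc1a, the PGC-1α coactivator of HNF4α, was lower (-1.0, SE 0.177, adjusted p = 0.000802), as was the deacetylase gene Hdac3 (-0.68, SE 0.0988, adjusted p = 0.000194).

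Known target genes of the factors fell more often than they rose. Of 33 HNF4A targets 18 fell, 3 rose and 12 did not pass, with a median of -0.45. Over all genes tested, 16.6% fell and 19.7% rose, with a median of -0.003. Fabp1, a fatty acid binding protein, fell by 2.44 (SE 0.359, adjusted p = 0.0004 in edgeR), from 4347 ± 643.9 (SD, n = 6) to 799.8 ± 528 CPM (SD, n = 4). The bile acid enzymes Slc27a5 (-2.05, SE 0.199, adjusted p = 1.14e-05) and Baat (-1.91, SE 0.376, adjusted p = 0.003) fell as well. Agt, the angiotensin precursor, rose (1.39, SE 0.123, adjusted p = 5.64e-06), as did hepatic lipase Lipc (0.55, SE 0.128, adjusted p = 0.00458) and Mttp (0.29, SE 0.107, adjusted p = 0.0499), which loads lipoproteins. Mttp passed against the MCS controls (0.37, adjusted p = 0.0327 in edgeR) but not against the WT Cre controls (0.22, adjusted p = 0.195). The summed level of the HNF4A targets was 44430 to 55660 CPM in the controls and 31790 to 41040 CPM in KO. In KO 4, where Hnf4a itself stood at 772 CPM, the sum was 31880 CPM.

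Of 13 FOXA targets 9 fell and 1 rose (Mttp), with a median of -0.63, where 16.6% of all genes fell. Without KO 3, 5 fell, and none rose without WT Cre 2, WT Cre 3, MCS 1, MCS 2, KO 2, KO 3 or KO 4. Of 11 CEBPA targets 8 fell and none rose (median -0.71). G6pc, the last enzyme of glucose release, is in both lists and fell by 1.71 (SE 0.199, adjusted p = 4.09e-05 in edgeR). Tat, a tyrosine catabolic enzyme, fell by 1.05 (SE 0.317, adjusted p = 0.0231), and Ttr, the thyroxine carrier, by 0.96 (SE 0.135, adjusted p = 0.000151). Of 10 NR5A2 targets 5 fell and none rose (median -0.62), among them Apoa1 (-0.97, SE 0.296, adjusted p = 0.0232) and the sterol exporter Abcg5 (-0.78, SE 0.199, adjusted p = 0.00921). The lists share genes with one another and with the hepatocyte markers, of which 12 of 15 fell and none rose (median -0.88). The number of hepatocyte markers that fell was 7 without KO 3. Fewer genes fell against the WT Cre than against the MCS controls, 11 and 18 HNF4A targets, 5 and 8 FOXA targets, 5 and 9 CEBPA targets, 1 and 5 NR5A2 targets, and 6 and 13 hepatocyte markers. Apoa1 is an example, at -0.45 against the WT Cre controls (adjusted p = 0.175 in edgeR) and -1.35 against the MCS controls (adjusted p = 0.00119). The difference between these comparisons was not tested for the lists.

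**Figure D5:**
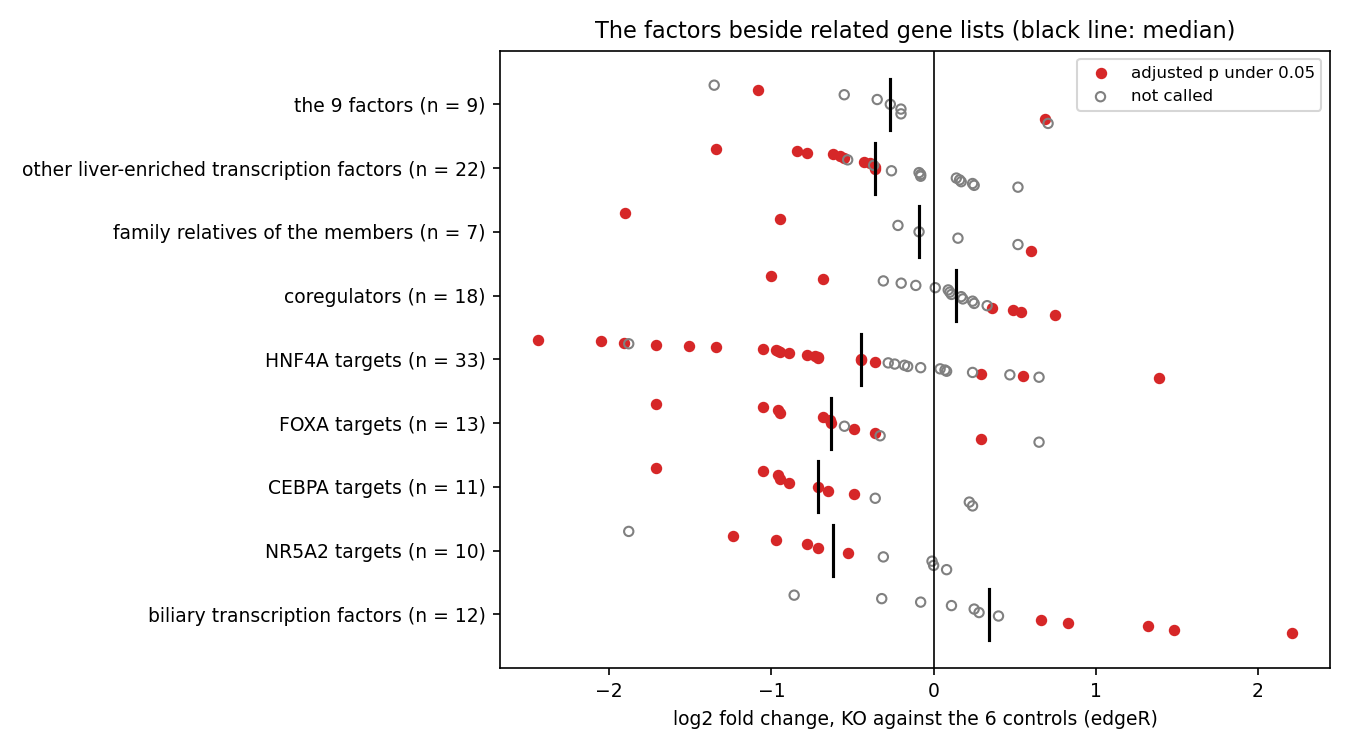
Log2 fold change in KO against the 6 controls (edgeR) for each gene of the set and of 8 related lists, with red points at an adjusted p under 0.05, open points otherwise and a black line at each median. The medians are -0.27 for the 9 factors, -0.45 for HNF4A targets, -0.71 for CEBPA targets and 0.34 for biliary transcription factors.

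Transcription factors of bile duct cells went up in part. Of 12 biliary factors 5 rose and none fell, with a median of 0.34, where 19.7% of all genes rose. Without MCS 2, 3 rose, and without KO 3, 3 rose and 1 fell. Sox9, which marks duct cells and hepatocytes that take on duct features, went from 5.29 ± 1.10 (SD, n = 6) to 13.2 ± 4.52 CPM (SD, n = 4, log2 fold change 1.32, SE 0.224, adjusted p = 0.000645 in edgeR). Elf3 (2.21, SE 0.267, adjusted p = 5.38e-05), from 0.632 to 2.94 CPM, and the Notch target Hey1 (1.48, SE 0.367, adjusted p = 0.00685) also rose, as did Sox4 (0.83) and Glis3 (0.66). Levels were low for Hey1 (0.293 to 0.812 CPM, at most 30 counts per liver) and Glis3 (0.687 to 1.08 CPM, at most 31). Against the WT Cre controls 3 of the 12 rose, and against the MCS controls 5. Sox4 (0.40, adjusted p = 0.1 in edgeR) and Glis3 (0.54, 0.149) did not pass against the WT Cre controls. Sox4 was higher in WT Cre than in MCS livers (1.07, adjusted p = 0.0224 in edgeR). Of 10 cholangiocyte markers 1 rose (Sox9) and 1 fell (Pkhd1, -0.87). Without KO 2, 3 rose and none fell, without KO 3, 2 rose, and without WT Cre 3 none fell. Their summed level was 55.7 to 87.8 CPM in the controls and 75.5 to 95.2 CPM in KO, and Spp1 did not pass (0.22, adjusted p = 0.263). The part of duct cells in these values was not tested.

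Markers of other cells moved with the KO group, where 19.7% of all genes rose. All 10 Kupffer cell markers rose (median 1.56), and their summed level went from 248 to 468 CPM in the controls to 579 to 1257 CPM in KO, with Clec4f at 1.29 and Cd5l at 1.74 on the log2 scale. Of 10 stellate cell markers 9 rose, with sums of 345 to 419 and 647 to 913 CPM, Dcn at 0.68 and Ecm1 without passing at -0.05. Of 8 leukocyte markers 7 rose, with sums of 65.5 to 120 and 163 to 450 CPM, led in level by Cd74 (2.02) and Ptprc (2.06). Of 8 endothelial markers 1 rose (Cdh5, 0.77), whereas 6 rose without KO 1 or with scaling by library size only and 2 without MCS 3. Their sums were 230 to 288 and 245 to 441 CPM, and neither Clec4g (0.17, adjusted p = 0.363) nor Stab1 (0.32, adjusted p = 0.105) passed. Of 6 tested pancreas and gut markers 3 rose, with sums of 125 to 172 and 164 to 190 CPM. They were Vil1 (3.08), Gcg, which had 0 counts in every control and at most 8 in a KO liver, and Cela2a, which ran from 0.0397 to 0.3125 CPM in the controls and from 0.3258 to 104.9 CPM in KO. The genes Cpa1, Ctrb1, Cel, Ins2, Cdx2 and Muc2 were too low to be tested, and neither Fabp2 (-0.82, adjusted p = 0.13) nor Cela1 (1.13, adjusted p = 0.142) passed. Fabp2 held most of the control sum, at a mean of 130 CPM in the controls and 74.1 CPM in KO. Cela1 passed against the WT Cre controls (2.49, adjusted p = 9.38e-05 in edgeR) but not against the MCS controls (0.44, 0.179). It was lower in WT Cre than in MCS livers (-2.05, adjusted p = 0.00448 in edgeR). The part of other cells in the values of the 9 factors was not tested.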

How the data were processed

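The deposited table of counts holds whole-number reads per gene, one column per liver, without normalization. The authors trimmed the reads with Trim Galore, aligned them to mm10 with STAR and counted them with HOMER, whereas the processing notes of the submitters list STAR, HTSeq and Cufflinks. The strand setting is not given in the sources used here, so reads of overlapping genes may be shared. The deposited FPKM values, fragments scaled to gene length and depth, were blank for Hnf4a in some livers and served only as an alternative. Depth is known from the counts, and the number of livers limits the precision.

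Genes with at least 10 counts over the 10 livers were kept. Tests were quasi-likelihood F tests in edgeR 4.0.16 under R 4.3.3 with TMM and robust dispersions, two-sided, adjusted by Benjamini-Hochberg over all 22449 genes tested. A fit of 2 groups gave KO against the 6 pooled controls, and a fit of 3 groups gave the other comparisons. SE is the absolute log2 fold change over the root of F. Log2 CPM used a prior count of 2. Ratios were compared by exact permutation. Alternatives were DESeq2 1.42.0, its size factors within edgeR, library size only, limma-voom (limma 3.58.1), other count filters, limma on log2(FPKM + 1) and log2(FPKM + 0.1), each liver left out and a replicate block. The script was tested on simulated data. Genes were placed with GENCODE M21 and promoters taken from RefSeq.

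The 9 factors, the gene lists and the tests were chosen with earlier results of these data known. Lists were written from general knowledge. The text names all 9 factors, H3f3a and H3f3b, genes that overlap a factor, the 3 genes with the largest change in each direction among those called in each list, the 2 markers of highest level in each marker list, and the 2 nearest profiles of each factor. Outside this rule, Kmt2c, Sox4, Glis3, Pkhd1, Cdh5, Cela2a, Vil1 and Gcg were named after their values were seen, as the remaining calls of short lists. Some genes and a motif that these rules would name are not reported here.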

Additional observations from a re-analysis of the deposited data

Results flagged for a closer look

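Within 26 checks of single livers against the rest of their group, 6 values stood apart by Dixon's criterion, by which chance marks about 1 in 20 groups. Among the KO livers, Foxa2 was highest in KO 1 at 18.9 CPM, with the others at 14.6 to 15.1 CPM. Onecut2 was lowest in KO 1 at 56.7 CPM, with the others at 66.0 to 67.3 CPM, and the log2 ratio of Onecut1 to Onecut2 was lowest in KO 1 at -4.23, with the others at -3.41 to -3.25. Among the 6 controls, Onecut1 was highest in MCS 2 at 40.2 CPM, with the others at 5.00 to 17.1 CPM. Onecut2 was highest in MCS 3 at 104.7 CPM, with the others at 60.9 to 72.2 CPM, and the log2 ratio of Foxa1 to Foxa3 was lowest in MCS 3 at -2.86, with the others at -1.61 to -0.86.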

How the results depend on the processing

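Against the 6 controls, 159 of 169 alternative values of single factors kept their direction and their side of the threshold, 10 newly passed and none was lost or reversed. H3f3a and H3f3b passed in each of their alternatives. Scaling by library size only shifted the all-gene median (log2) from -0.003 to 0.172 and the calls from 4429 higher of 8155 to 5635 higher of 7807. With single livers left out, 2 to 5 factors were called against the 6 controls (5 without KO 4, 4 without MCS 3). All genes called there were 6856 of 21947 without KO 4 and 8079 of 22215 without MCS 3. Against the WT Cre controls 1 to 4 factors were called (1 without WT Cre 3, 4 without KO 4). All genes called were 4297 of 22069 and 5724 of 21947 in these 2 fits. Against the MCS controls 1 to 5 factors were called (1 without MCS 2, 5 without MCS 1). All genes called were 4979 of 22123 and 5168 of 22082 in these 2 fits. Between the control kinds the number of genes called was 208, and 643 in DESeq2, 315 without a count filter and 70 to 517 with single livers left out. With single livers left out the difference in log2 ratio ran from -2.07 to -1.51 for Foxa2 to Foxa3, from -1.38 to -0.98 for Foxa1 to Foxa3 and from 0.49 to 0.89 for Foxa1 to Foxa2. Alternatives for the gene lists were added after seeing the data. Those that fell were 5 to 10 other liver factors, 5 to 9 FOXA targets and 7 to 12 hepatocyte markers with single livers left out, 5 liver factors under library size only and 3 NR5A2 targets without a count filter, and 3 to 5 biliary factors rose. Signs turned only for values that did not pass. With library size only these were 0.023 for Onecut2 against WT Cre and, in WT Cre against MCS, 0.028 for Foxa1, 0.083 for Prox1 and 0.012 for Nr5a2. With single livers left out, WT Cre against MCS ran from -0.29 to 0.24 for Foxa1, -0.12 to 0.24 for Cebpa, -1.55 to 0.29 for Onecut1, -0.38 to 0.036 for Onecut2 and -0.26 to 0.072 for Prox1. The cause was not tested.

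The labels tie same-numbered livers by nothing but the number. Their deviations from the group means correlated at -0.122 to 0.203, over 0.1 in 3 of 9 pairs, and 7 of 10 livers correlated best with one of their own number, which is a hint of pairing from the data and not from the design. The highest of these best matches, 0.325, was between MCS 3 and KO 4, which do not share a number. With the replicate number as a block, which leaves KO 4 without weight, 5 factors were called against the 6 controls, with Hnf4a (-0.83, adjusted p = 0.00599), Foxa1 (-0.53, 0.0158) and Nr5a2 (-0.38, 0.0396) gained. Against WT Cre 4 were called, with Hnf4a (-0.60, 0.0119) and Foxa1 (-0.50, 0.0363) gained and Foxa2 (-0.86, 0.0543) lost. Against MCS controls 6 were called, with Foxa1 (-0.56, 0.02), Onecut1 (-1.5, 0.00995) and Nr5a2 (-0.44, 0.0269) gained. Of all 22449 genes, the block called 6311 against the 6 controls, 5708 against WT Cre and 6532 against MCS controls. Between the control kinds it called 386 genes. The block gave 2 coregulators higher, 3 NR5A2 targets and 7 hepatocyte markers lower and 3 biliary factors higher. It gave a Foxa2 to Foxa3 difference of -1.51 (exact permutation p = 0.25). With 3 blocks the test as run could give no smaller p, so it cannot decide on this difference. With 3 or 4 livers a group, differences of the size seen for Hnf4a or Onecut1 were not resolved.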
